A study of Aphis gossypii with 6 samples.

Results

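The lipases and the proteins that carry and store lipid in the cotton aphid, Aphis gossypii, were taken as the genes whose product description names a lipase, a lipophorin, a vitellogenin, a fatty acid-binding protein, a lipid storage droplet protein, a perilipin, a diacylglycerol O-acyltransferase or a Niemann-Pick type (NPC) cholesterol transporter. Descriptions that name a phospholipase or an acyl-CoA were left out. The rule found 44 of the 14013 genes in the table, of which 36 are lipases or a lipase maturation factor. The remaining 8 are 3 fatty acid-binding proteins, 2 NPC transporters, 1 apolipophorin, 1 vitellogenin receptor and 1 droplet coat protein. The 4 parts of the rule for perilipin, diacylglycerol O-acyltransferase, the Niemann-Pick name and the unhyphenated spelling of fatty acid-binding protein matched no gene.

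RNA came from pooled whole bodies of RGL, a strain resistant to the pyrethroid beta-cypermethrin, and of SGL, a sensitive (here: susceptible) strain labelled WT, with 3 libraries each and no contact with the insecticide. The series' title names a field of Chinese wolfberry. Age, morph and rearing are not stated. Each condition is a single strain, so resistance cannot be told apart from other strain differences, and no label ties the 3 libraries to separate cultures, so p-values capture the spread among these libraries alone, and that spread may be technical.

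Aphids live on phloem sap, which is rich in sugar and poor in fat, so most of their lipid is built from dietary sugar and held as triglyceride in droplets of the fat body. Lipases cut these neutral lipids. The pancreatic family is mostly secreted, the gastric or acid family acts in the gut and in lysosomes, and the intracellular lipases act in the cytosol and at membranes. The released fatty acids are bound inside cells by fatty acid-binding proteins, travel between organs on lipophorin, and are sheltered in droplets by coat proteins of the perilipin family.

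Library totals were between 31290134 and 46681719 counts. Markers of muscle, nerve, gut, embryo or germline and cuticle were detected in every library. The resistant libraries were less alike than the susceptible ones, with resistant replicate 1 set apart from replicates 2 and 3, so values without that library are given where they matter. As the samples are bulk tissue, fewer cells of a type and less RNA per cell cannot be told apart.

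Of the 39 lipid genes that passed the filter on low counts, 13 rose and 5 fell in the resistant strain (edgeR's quasi-likelihood F test, with p adjusted by Benjamini-Hochberg over all tested genes and called under 0.05). That is 33.3% higher and 12.8% lower, where 21.4% of all 11149 tested genes were called higher and 14.4% lower. At least 2-fold rises were called in 6 lipid genes, all of them pancreatic-type lipases, and 0 lipid genes fell as much (8.31% and 1.96% of all tested genes). At an unadjusted p under 0.05 the count of such falls was also 0, and it was 0 with DESeq2 and limma-voom. The median log2 fold change was 0.20 for the lipid genes and -0.00374 for all tested genes. For the lipid genes it was 0.13 without resistant replicate 1, where 9 acid lipases in place of 8 passed the filter. The libraries of the strains did not overlap in 22 of the 39 genes, or 56.4%, close to the 54.1% of all tested genes. The count that fell was 8 without resistant replicate 1, 3 without susceptible replicate 1 and 3 without susceptible replicate 3. With library totals alone as the scaling, 11 lipid genes were higher and 6 lower; all genes then shifted by a median of -0.15, with 1759 higher and 2322 lower in place of 2383 and 1611.

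**Figure D1:**
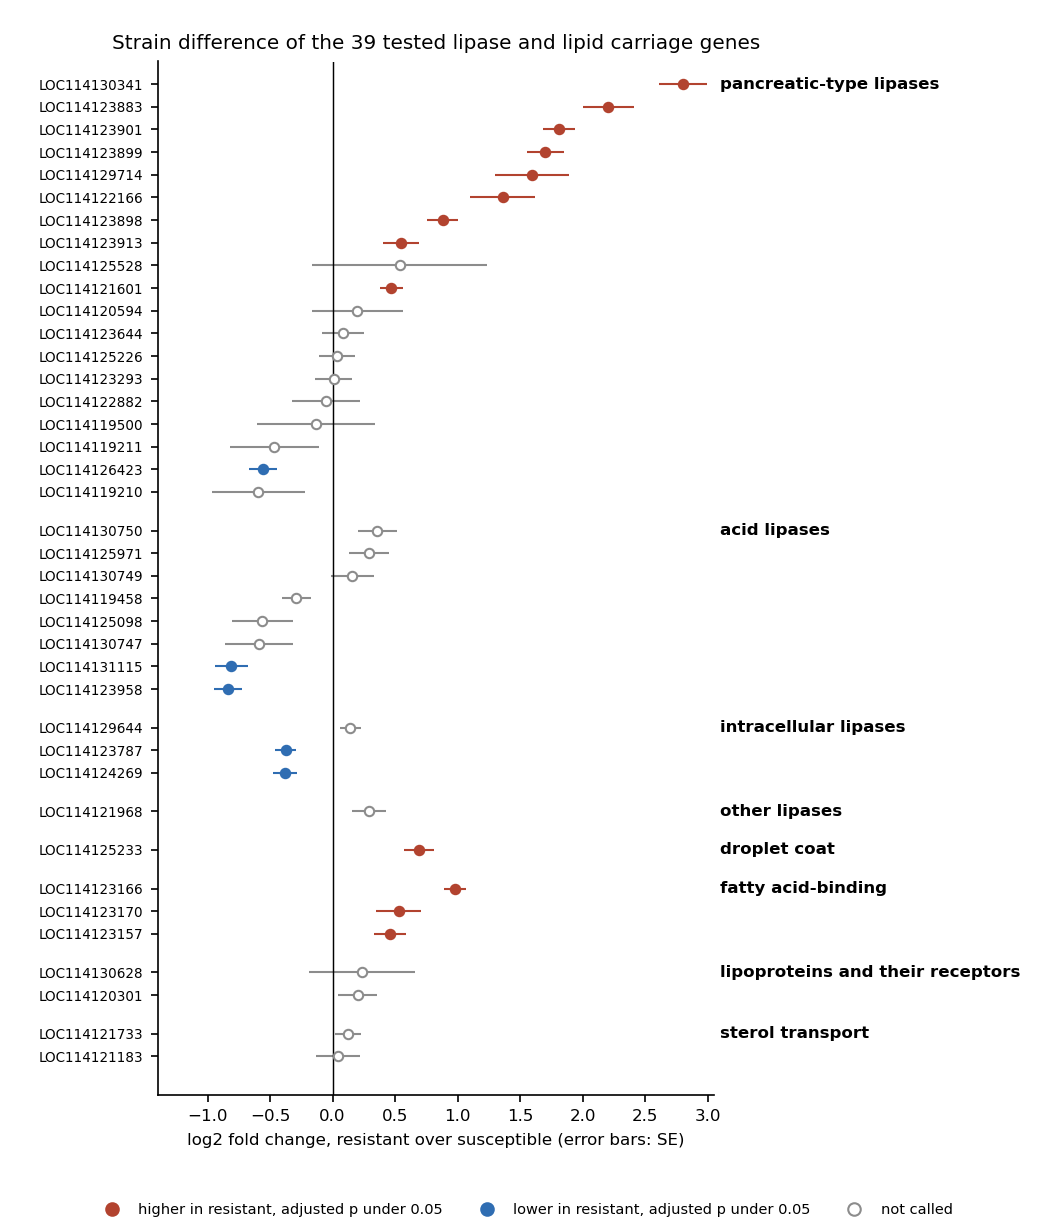
Log2 fold change (resistant over susceptible, x axis) with its SE for each of the 39 tested genes, grouped by role from top to bottom, with called genes in solid red (higher) or blue (lower) and the others open. The pancreatic-type lipases span -0.59 to 2.80, while all 3 fatty acid-binding genes and the droplet coat gene lie to the right of 0.

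Pancreatic-type lipases made up the largest role, with 20 genes of which 19 were tested. In this role 9 rose and 1 fell, and the median log2 fold change was 0.47. That median was 0.26 without resistant replicate 2, 0.22 without susceptible replicate 3, 0.22 with limma-voom and 0.18 with the replicate block. All 20 carry the Pfam domain named Lipase, which the choice by product text did not use. Together they reached 2070, 1467 and 1351 CPM (counts scaled to a common library size by the TMM method) in resistant replicates 1 to 3, against 693, 687 and 689 CPM in susceptible replicates 1 to 3. The summed level was therefore 2.36 times as high in the resistant strain, and its libraries lay above all susceptible ones. On this scale the sum over all genes was 1.11 times as high.

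Most of that gap came from a pair of genes. LOC114130341, annotated as pancreatic lipase-related protein 2, a secreted lipase named after a mammalian enzyme of fat and galactolipid digestion, had 410, 272 and 246 CPM in the resistant libraries and 46.6, 42.4 and 44.1 CPM in the susceptible ones. No library overlapped between the strains, and the lowest resistant value was far above the highest susceptible one. The log2 fold change was 2.80 ± 0.19 (SE), a 6.97-fold rise (adjusted p = 3.8e-05). LOC114123883, a pancreatic triacylglycerol lipase type gene, had 839, 519 and 493 CPM in the resistant libraries, against 143, 126 and 132 CPM in the susceptible ones. It was 4.61-fold higher, by 2.21 ± 0.20 on the log2 scale (adjusted p = 0.000142). Both genes were highest in resistant replicate 1, and without that library their log2 fold changes were 2.54 and 1.92. The pair supplied 60.4%, 53.9% and 54.7% of the summed pancreatic-type level of the resistant libraries, against 27.4%, 24.5% and 25.5% of that of the susceptible libraries. Without the pair, the other 18 genes summed to 821, 676 and 612 CPM in the resistant libraries and 503, 519 and 513 CPM in the susceptible ones.

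**Figure D2:**
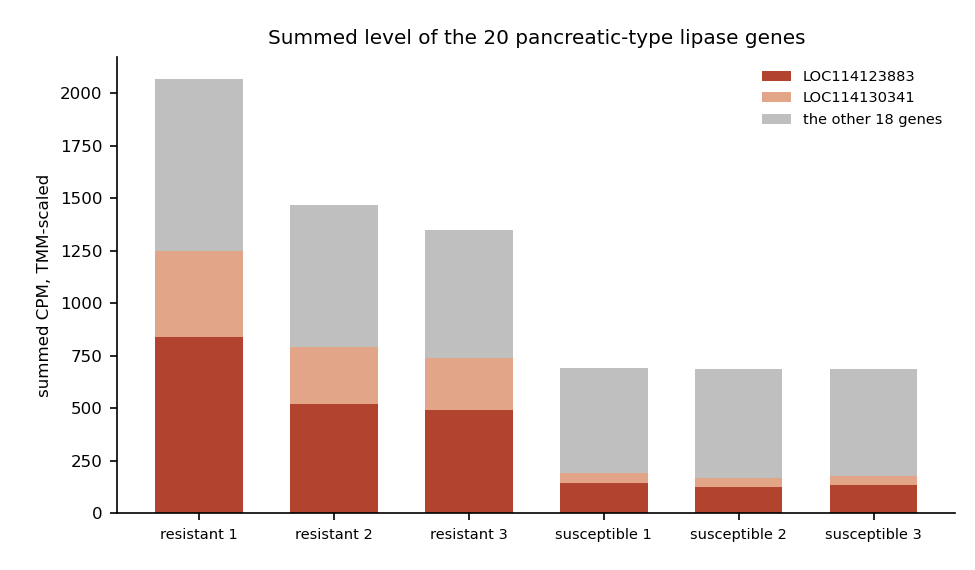
Summed level of the 20 pancreatic-type lipase genes in each library (y axis, TMM-scaled CPM), split into LOC114123883, LOC114130341 and the other 18 genes. The resistant bars reach 1351 to 2070 CPM and the susceptible bars 687 to 693 CPM, and the coloured segments widen more than the grey one.

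The next 2 genes by size of change were also among the more abundant. LOC114123901, a lipase member H-A type gene, had 62.0, 49.4 and 50.0 CPM in the resistant libraries and 15.1, 14.4 and 16.5 CPM in the susceptible ones. Lipase member H is a membrane-bound or secreted phosphatidic acid lipase in mammals. Its log2 fold change was 1.81 ± 0.13 (adjusted p = 4.26e-05). LOC114123899 is described as an inactive pancreatic lipase-related protein 1, a name taken from a mammalian relative with little lipase activity. It had 175, 130 and 116 CPM in the resistant libraries and 44.1, 42.9 and 42.2 CPM in the susceptible ones, and was 3.25-fold higher (log2 fold change 1.70 ± 0.15, adjusted p = 0.000116). The susceptible libraries differed by little in both genes, and every resistant value was above all of them.

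The other 5 that rose were smaller in change or in level. LOC114129714, of the lipase-related protein 2 type, reached only 4.04 ± 0.93 CPM in the resistant strain against 1.34 ± 0.39 CPM in the susceptible strain (SD, n = 3 each; log2 fold change 1.59 ± 0.30). LOC114122166, a member H-B type gene, was at 2.08 ± 0.07 CPM in the resistant and 0.807 ± 0.101 CPM in the susceptible strain (1.36 ± 0.26). LOC114123898 was at 29.6 ± 3.3 CPM in the resistant and 16.0 ± 0.97 CPM in the susceptible strain (0.88 ± 0.12). The last 2 bear the inactive lipase name. LOC114121601 rose 1.39-fold and LOC114123913 1.46-fold, with adjusted p of 0.00465 and 0.0206. The first lost its call with library totals alone as the scaling (adjusted p = 0.0711), and the second without resistant replicate 2 or any 1 susceptible library (adjusted p from 0.0614 to 0.0877).

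LOC114126423, a pancreatic triacylglycerol lipase type gene, was the only pancreatic-type member that fell. It had 69.6, 69.1 and 55.6 CPM in the resistant libraries and 93.3, 102 and 90.5 CPM in the susceptible ones, a log2 fold change of -0.55 ± 0.11 (adjusted p = 0.00574). The remaining 9 tested members gave no call. Among them LOC114125226, one of the more abundant, had 154, 113 and 103 CPM in the resistant libraries and 124, 115 and 121 CPM in the susceptible ones. Its resistant values straddled the susceptible ones, and without resistant replicate 1 its log2 fold change turned to -0.16 (adjusted p = 0.0495). LOC114123293 was likewise at 51.9 ± 11.2 CPM in the resistant and 51.5 ± 3.2 CPM in the susceptible strain (adjusted p = 0.972).

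**Figure D3:**
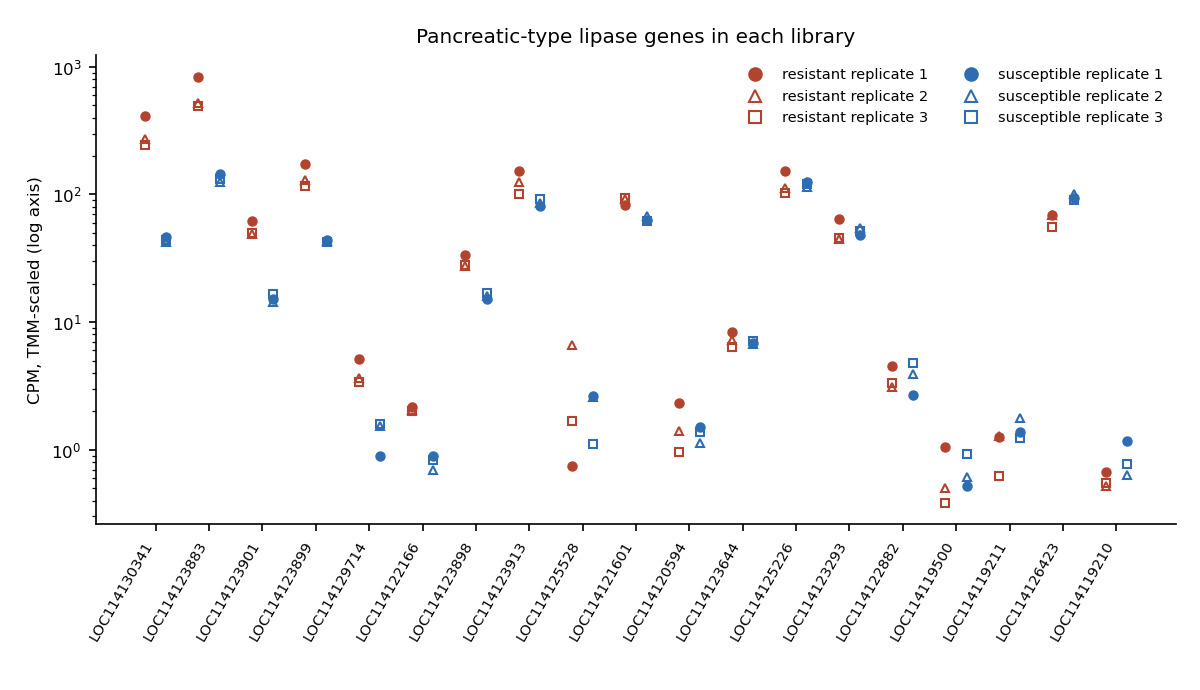
Level of each of the 19 tested pancreatic-type lipase genes in every library (y axis, TMM-scaled CPM on a log axis), ordered from the greatest rise to the greatest drop, with resistant libraries in red to the left of susceptible ones in blue. The leftmost gene, LOC114130341, shows 246 to 410 CPM in the resistant libraries against 42.4 to 46.6 CPM in the susceptible ones, and filled circles (replicate 1) top the resistant points in most genes.

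In 16 of the 19 tested pancreatic-type genes resistant replicate 1 was the highest resistant library, by a median of 0.47 log2 units over the mean of the other resistant libraries, whereas over all tested genes that median was -0.02. Gut digestive genes moved with this role. Of 28 tested cathepsin B and maltase genes, enzymes of the aphid gut, 25 were called higher and 0 lower, and their summed level was 11178 to 14423 CPM in the resistant libraries against 3980 to 4231 CPM in the susceptible ones. Of the 32 listed genes, 3 or 4 were at 0 counts in each resistant library and 2 to 4 in each susceptible library. Their summed level was also highest in resistant replicate 1. Of 48 tested cuticle protein genes 28 were higher and 3 lower, with 16963 to 30118 CPM in sum in the resistant and 12629 to 13099 CPM in the susceptible libraries, and again resistant replicate 1 was the highest. The part of gut or cuticle content in the lipase result was not tested.

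Some of the genes that rose lie next to each other. In the gene order of the RefSeq assembly ASM2018417v2, which holds 39 of the 44 members, LOC114123883, LOC114123899, LOC114123901 and LOC114123898 form a run with 1 protein-coding gene between the second and the third. All 4 rose, by 2.21, 1.70, 1.81 and 0.88 on the log2 scale. The genes on either side of the run, LOC114123869 for the circadian protein period and LOC114124808 for nesprin-1, had log2 fold changes of -0.72 ± 0.11 (adjusted p = 0.00172) and -0.20 ± 0.40 (adjusted p = 0.721). LOC114130341, which rose most, has 2 genes between it and LOC114123644, another pancreatic-type lipase. The latter had a log2 fold change of 0.08 ± 0.17 (adjusted p = 0.723). The 2 genes between them gave no call (-0.81 ± 0.41 and -0.17 ± 0.12). On the other side of LOC114130341, the uncharacterized gene LOC114130336 was called higher (0.79 ± 0.14, adjusted p = 0.00357). LOC114123640, which flanks LOC114123644, gave no call (-0.49 ± 0.39). Members of such runs can be close copies. No source states how reads that match several copies were assigned, which makes the value of any 1 copy uncertain.

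Acid lipases, which cut neutral lipid at low pH, had no called rise. Of 12 genes 8 were tested with edgeR, 0 rose and 2 fell, where 21.4% of all tested genes were called higher and 14.4% lower. The median log2 fold change was -0.43 over these 8 genes. Without resistant replicate 1 it was -0.21, but over 9 genes, as a further acid lipase passed the filter, so these medians cover unlike sets. At an unadjusted p under 0.05 the counts were 0 higher and 4 lower, and DESeq2 and limma-voom also called 0 higher. LOC114123958, a gastric triacylglycerol lipase type gene and the most abundant of the role per length, had 58.9, 70.8 and 78.5 CPM in the resistant libraries and 118, 126 and 128 CPM in the susceptible ones. The groups were well apart, with a log2 fold change of -0.84 ± 0.11 (adjusted p = 0.001). LOC114131115, a lipase 3 type gene, had 25.4, 24.5 and 19.2 CPM in the resistant libraries and 39.7, 43.0 and 38.1 CPM in the susceptible ones (-0.81 ± 0.13, adjusted p = 0.00221). Lipase 3 of the fruit fly is a gut-expressed acid lipase. Together the 12 genes summed to 234, 222 and 207 CPM in the resistant libraries and 280, 292 and 290 CPM in the susceptible ones. Without resistant replicate 1 the number that fell was 4, and without resistant replicate 3 there were 2 that rose.

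Some of the acid lipases also lie in neighbouring runs, and none of those in the runs was called in the main edgeR fit. Across the 13 alternatives LOC114130747 and LOC114125098 were called lower in 2 each, and LOC114119458 in 1. LOC114125971 and LOC114130750 were called higher in 1 each. With no low-count filter 3 acid lipases were lower in place of 2, the added one being among the genes below the filter. LOC114130747, LOC114130750 and LOC114125971, lipase 3 type genes with 1 gene between each and the next, had log2 fold changes of -0.59 ± 0.27, 0.36 ± 0.16 and 0.29 ± 0.16. None of them was called in the main fit (edgeR adjusted p = 0.124, 0.113 and 0.185). A run of 6 gastric lipase type genes holds LOC114119458 (-0.29 ± 0.12, adjusted p = 0.0845), LOC114125098 (-0.56 ± 0.24, adjusted p = 0.107) and 4 genes that did not pass the low-count filter. Those 4 had at most 20 counts in any library. One of them, LOC114125084, had 0 counts in all 3 resistant libraries and 8, 8 and 6 counts in the susceptible ones, which is at least 7.57-fold lower if the resistant group is given 3 counts in all, a limit for counting error only. The fifth member without a test, the pancreatic-type LOC114121701, had 0 counts in every library.

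The intracellular lipases moved little. LOC114124269 encodes hormone-sensitive lipase, which in mammals and the fruit fly releases fatty acids from stored fat. It had 34.5, 39.1 and 39.4 CPM in the resistant libraries and 49.3, 48.1 and 49.8 CPM in the susceptible ones, a log2 fold change of -0.38 ± 0.10 (adjusted p = 0.015). LOC114123787, sn1-specific diacylglycerol lipase beta, which in mammals makes the signalling lipid 2-arachidonoylglycerol, had 44.0, 47.9 and 46.1 CPM in the resistant libraries and 62.0, 57.7 and 59.7 CPM in the susceptible ones (-0.38 ± 0.09, adjusted p = 0.0112). In neither gene did the libraries of the strains overlap, as in 54.1% of all tested genes. Both calls were lost without susceptible replicate 1 (adjusted p = 0.0664 for hormone-sensitive lipase and 0.0629 for the diacylglycerol lipase) and without susceptible replicate 3 (0.0645 and 0.0514), and the first also without susceptible replicate 2 (0.0561). LOC114129644, the monoacylglycerol lipase ABHD12, which in mammals hydrolyses lysophosphatidylserine, was at 73.2 ± 2.5 CPM in the resistant and 66.4 ± 3.0 CPM in the susceptible strain (adjusted p = 0.217). The lipase maturation factor 2 gene LOC114121968, whose vertebrate relative helps lipases fold in the endoplasmic reticulum, had 132, 163 and 196 CPM in the resistant libraries against 133 to 135 CPM in the susceptible ones. Resistant replicate 1 lay just below the susceptible libraries and the other resistant libraries above them, and without it the log2 fold change was 0.42 (adjusted p = 3.48e-05) in place of 0.29 ± 0.13 (adjusted p = 0.128).

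The droplet coat and the fatty acid-binding genes were all higher. LOC114125233 is lipid storage droplets surface-binding protein 1, a perilipin that in the fruit fly coats fat body droplets and governs the access of lipases to them. It had 383, 304 and 287 CPM in the resistant libraries and 214, 195 and 195 CPM in the susceptible ones, a 1.61-fold rise (log2 fold change 0.69 ± 0.12, adjusted p = 0.0031). The lowest resistant library was above all susceptible libraries, and 54.1% of all tested genes likewise had no overlap between the strains. The call was kept in all 13 alternatives.

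Fatty acid-binding proteins are small cytosolic carriers, and all 3 here are named after the muscle type and carry the lipocalin and cytosolic fatty-acid binding domain in Pfam. They stand side by side with no gene between them. LOC114123166 had 146, 124 and 126 CPM in the resistant libraries and 67.4, 65.7 and 67.6 CPM in the susceptible ones, and was 1.97-fold higher (0.98 ± 0.09, adjusted p = 0.000135). The more abundant LOC114123157 had 407, 331 and 286 CPM in the resistant libraries and 253, 247 and 244 CPM in the susceptible ones (0.46 ± 0.13, adjusted p = 0.0236). LOC114123170, the least abundant, had 17.9, 12.4 and 13.3 CPM in the resistant libraries and 10.5, 9.01 and 10.7 CPM in the susceptible ones (0.53 ± 0.18, adjusted p = 0.0478). All 3 separated the strains completely, as did 54.1% of all tested genes. They were highest in resistant replicate 1, which was the highest resistant library in 4691 of all 11149 tested genes. The call of LOC114123166 held in every alternative, whereas LOC114123157 lost its call without resistant replicate 2 and without each susceptible library in turn (adjusted p from 0.0649 to 0.108). LOC114123170 lost its call in 8 of 13 alternatives (adjusted p over all 13 from 0.0217 to 0.167). Over all tested genes 21.4% were called higher and 14.4% lower. Of 7 tested muscle structural genes 3 were called higher and 1 lower. Their summed level was 9808 to 11189 CPM in the resistant and 8515 to 9109 CPM in the susceptible libraries. Of 10 tested nervous system genes 4 were called higher and 2 lower, with 581 to 717 CPM in sum in the resistant and 506 to 511 CPM in the susceptible libraries. The sum over all genes was 994070 to 1165800 CPM in the resistant and 944050 to 953990 CPM in the susceptible libraries. The part of muscle content was not tested.

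**Figure D4:**
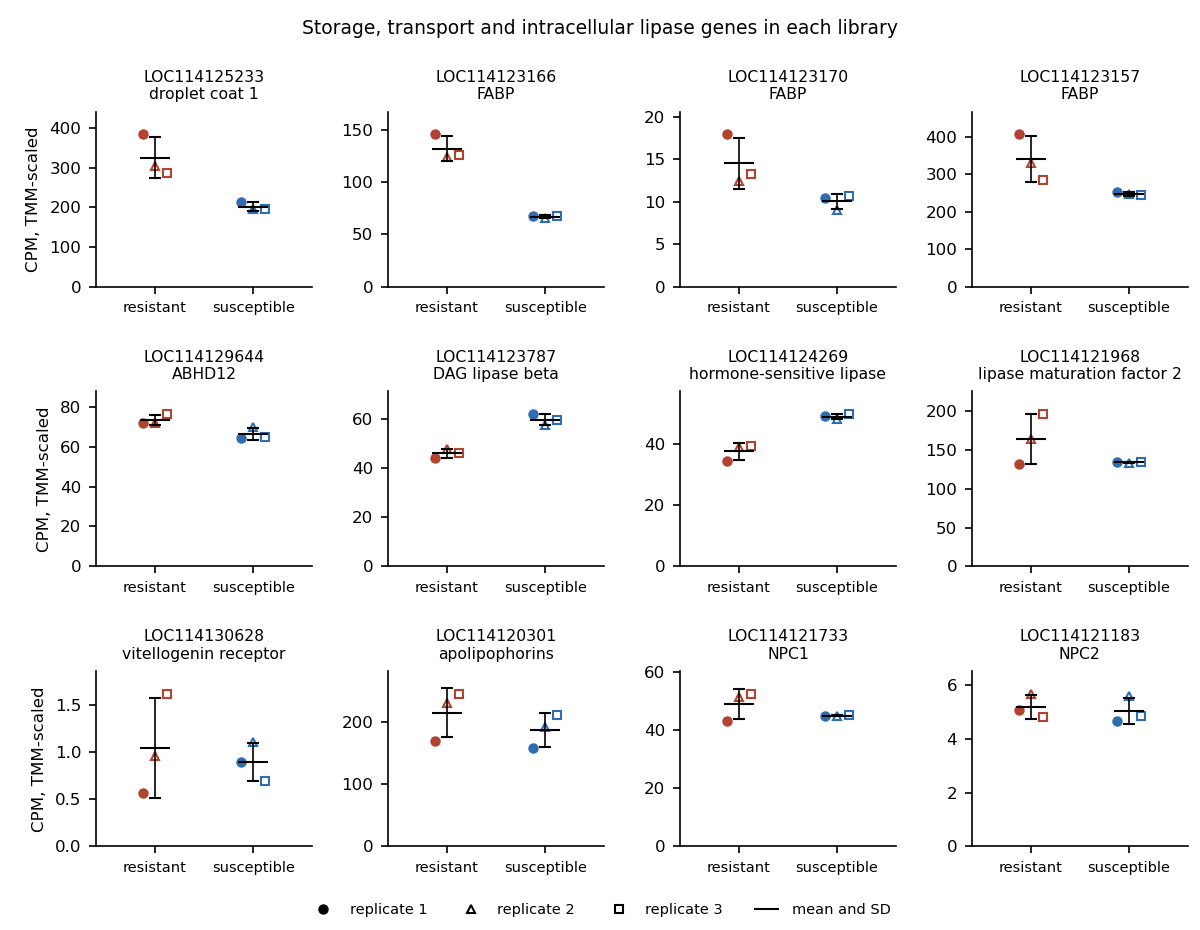
Level of 12 storage, transport and intracellular lipase genes in each library (y axes from 0, TMM-scaled CPM), with the mean and SD of the 3 libraries per strain, resistant on the left. The droplet coat and fatty acid-binding genes lie wholly above the susceptible libraries, hormone-sensitive and diacylglycerol lipase wholly below, and the apolipophorin, vitellogenin receptor and NPC genes overlap.

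Carriers between organs and cells gave no call. LOC114120301 encodes apolipophorin, the protein backbone of the lipophorin particle that ferries diacylglycerol through insect blood. It had 170, 230 and 244 CPM in the resistant libraries and 158, 192 and 212 CPM in the susceptible ones, so the groups overlapped (log2 fold change 0.20 ± 0.16, adjusted p = 0.35). Without resistant replicate 1 the log2 fold change was 0.34 (adjusted p = 0.0164). The putative vitellogenin receptor LOC114130628, which in egg-laying insects takes yolk protein into the oocyte, was low, with 15, 44 and 59 counts in the resistant and 34, 38 and 23 counts in the susceptible libraries (adjusted p = 0.693). NPC1 and NPC2 hand cholesterol out of the lysosome, and aphids, like other insects, cannot make sterols and must obtain them. The NPC1 type gene LOC114121733 was at 48.9 ± 5.1 CPM in the resistant and 44.9 ± 0.26 CPM in the susceptible strain (adjusted p = 0.377, or 0.024 with a log2 fold change of 0.21 without resistant replicate 1). The NPC2 type gene LOC114121183 was at 5.18 ± 0.44 CPM in the resistant and 5.03 ± 0.49 CPM in the susceptible strain (adjusted p = 0.866).

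Levels per transcript length allow genes to be ranked against each other. On the FPKM scale (CPM divided by gene length in kilobases, computed here with TMM scaling and lengths derived from the deposited values), the highest member in the resistant strain was LOC114123883 with a mean of 396 FPKM, followed by the fatty acid-binding LOC114123157 with 286, the droplet coat gene with 224, LOC114130341 with 187 and the fatty acid-binding LOC114123166 with 173 FPKM. In the susceptible strain the order of mean FPKM was LOC114123157 with 208, the droplet coat gene with 139, LOC114123166 with 87.5, LOC114123883 with 85.8 and the acid lipase LOC114123958 with 70.6. LOC114130341 came to 26.8 FPKM there. The pancreatic-type LOC114123883 was thus the most abundant member in the resistant strain but not in the susceptible one, where it was nearly level with LOC114123166.

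Genes that act before and after these lipases were read from lists matched by product text. In glycerolipid assembly, the building of storage fat, 5 of 9 tested genes were called higher and 0 lower, also 0 lower at an unadjusted edgeR p under 0.05, with a median log2 fold change of 0.33. LOC114121839, a 2-acylglycerol O-acyltransferase, an enzyme of the family that includes diacylglycerol acyltransferase 2, had 37.4, 30.4 and 28.1 CPM in the resistant libraries and 13.9, 11.7 and 11.7 CPM in the susceptible ones (1.36 ± 0.15, adjusted p = 0.000326). Its relative LOC114121812 was at 169 ± 11 CPM in the resistant and 75.6 ± 3.0 CPM in the susceptible strain (1.16 ± 0.09). With library totals alone 2 genes were higher and 1 lower, and 2 were higher without susceptible replicate 1 and without susceptible replicate 3.

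In fatty acid beta-oxidation, the mitochondrial and peroxisomal burning of fatty acids, 15 of 26 tested genes were called higher and 0 lower, also 0 lower at an unadjusted edgeR p under 0.05 (median 0.42). Without resistant replicate 3 there were 17 higher and 1 lower. The peroxisomal acyl-coenzyme A oxidase 1 type gene LOC114119363, which starts peroxisomal breakdown, had 27.6, 27.3 and 24.1 CPM in the resistant libraries and 10.2, 11.7 and 10.1 CPM in the susceptible ones (1.31 ± 0.13, adjusted p = 0.000181). Resistant replicate 1 did not stand out in this list, where its median deviation from the other resistant libraries was -0.00051 log2 units. Of 9 genes that activate or bind fatty acids as acyl-CoA 6 were higher and 1 lower (median 0.57). The bubblegum type ligase LOC114130018, which activates very long chains, had 347, 371 and 396 CPM in the resistant and 189, 210 and 199 CPM in the susceptible libraries (0.90 ± 0.09, adjusted p = 0.000199). The acyl-CoA-binding domain protein LOC114132204 was the one that fell (-0.27 ± 0.09, adjusted p = 0.0469). The count of lower genes in this list was 0 with no low-count filter, with the replicate block, without resistant replicate 2 and without each susceptible library in turn, and it was 2 without resistant replicate 1 and with library totals alone. In fatty acid synthesis, which also holds reductases and desaturases of other lipids, 37 of 65 were higher and 3 lower. The lower count was 5 without resistant replicate 1 and 5 with DESeq2, and with library totals alone 30 were higher and 6 lower. Without resistant replicate 2 or 3 or any 1 susceptible library, with the replicate block or with either other filter, 2 were lower. Its greatest called changes at 5 CPM or more were in LOC114125979, a phytoene desaturase of carotenoid synthesis (2.17 ± 0.11), and the fatty acid synthase LOC114129891 (-3.63 ± 0.23). The latter was low, at 0.412 CPM in the resistant and 5.21 CPM in the susceptible strain. Every other tested gene named fatty acid synthase was called higher. The abundant LOC114121653 was at 2277 ± 331 CPM in the resistant and 918 ± 29 CPM in the susceptible strain (1.31 ± 0.13). The acetyl-CoA carboxylase LOC114122529 was also higher (1.02 ± 0.11).

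Of all tested genes 21.4% were called higher and 14.4% lower, and the lists for uptake, phospholipases and sterol handling had higher shares near or below that. The uptake list has 16 genes, chiefly lipoprotein receptors and related proteins and scavenger receptors. It also holds the microsomal triglyceride transfer protein, a lipoprotein receptor adapter and a sensory neuron membrane protein. In it 2 were higher and 0 lower by edgeR (2 lower at an unadjusted p under 0.05, 2 by DESeq2 and 1 by limma-voom). The scavenger receptor class B type gene LOC114127890 had 75.0, 63.9 and 58.4 CPM in the resistant and 27.3, 26.0 and 27.7 CPM in the susceptible libraries (1.28 ± 0.11, adjusted p = 0.00012). Without resistant replicate 1 this list had 4 higher and 4 lower, without resistant replicate 3 it had 4 higher and 1 lower, and it had 1 higher without susceptible replicate 1 or 3. With library totals alone it had 1 higher and 2 lower. Of 22 phospholipases, the relatives left out by the choice of members, 4 were higher and 1 lower. Lysosomal phospholipase B type LOC114121887 changed most, with 120, 81.8 and 83.4 CPM in the resistant and 18.5, 14.4 and 17.3 CPM in the susceptible libraries (2.51 ± 0.18, adjusted p = 4.4e-05), while the DDHD2 type LOC114127340 fell (-0.42 ± 0.13). The count of lower phospholipases was 0 without resistant replicate 2 or any 1 susceptible library. The count of higher ones was 8 without resistant replicate 1, 2 without resistant replicate 3, and 1 without any 1 susceptible library or with library totals alone. Of 8 sterol-handling genes 1 rose, LOC114131986 of the oxysterol-binding family (0.58 ± 0.16), and 1 fell, LOC114122624, which encodes the escort protein that activates the lipid regulator SREBP (-0.37 ± 0.11). Both counts were 0 without resistant replicate 2 and without each susceptible library in turn, and the higher count was 0 with library totals alone. Without resistant replicate 3 there were 2 lower.

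Among 15 tested genes matched to fat mobilisation signals, 1 was higher and 4 lower. That is 6.67% and 26.7%, where 21.4% of all tested genes were called higher and 14.4% lower. The higher one, LOC114119520, is named a gonadotropin-releasing hormone receptor, the receptor family to which the insect adipokinetic hormone receptor belongs, and adipokinetic hormone triggers fat release. It had 74.5, 49.0 and 58.0 CPM in the resistant libraries and 26.3, 23.3 and 25.5 CPM in the susceptible ones (1.27 ± 0.16, adjusted p = 0.00058). The 4 lower ones belong to insulin signalling, which in insects favours fat storage and growth. They are the receptor genes LOC114128111 (-0.63 ± 0.11), LOC114121389 (-0.44 ± 0.07) and LOC114121212 (-0.38 ± 0.13) and the receptor substrate LOC114131651 (-0.60 ± 0.09). Without resistant replicate 1 the list had 3 higher and 7 lower, and without resistant replicate 3 it had 3 higher and 3 lower. Not called were the insulin-like growth factor 1 receptor type gene LOC114121220 (-0.10 ± 0.14) and the forkhead box protein O type genes LOC114129032 (0.27 ± 0.13) and LOC114120340 (-0.15 ± 0.28). The text pattern also caught genes of other roles, such as insulin gene enhancer type transcription factors and insulin-degrading enzyme, which were not called either.

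**Figure D5:**
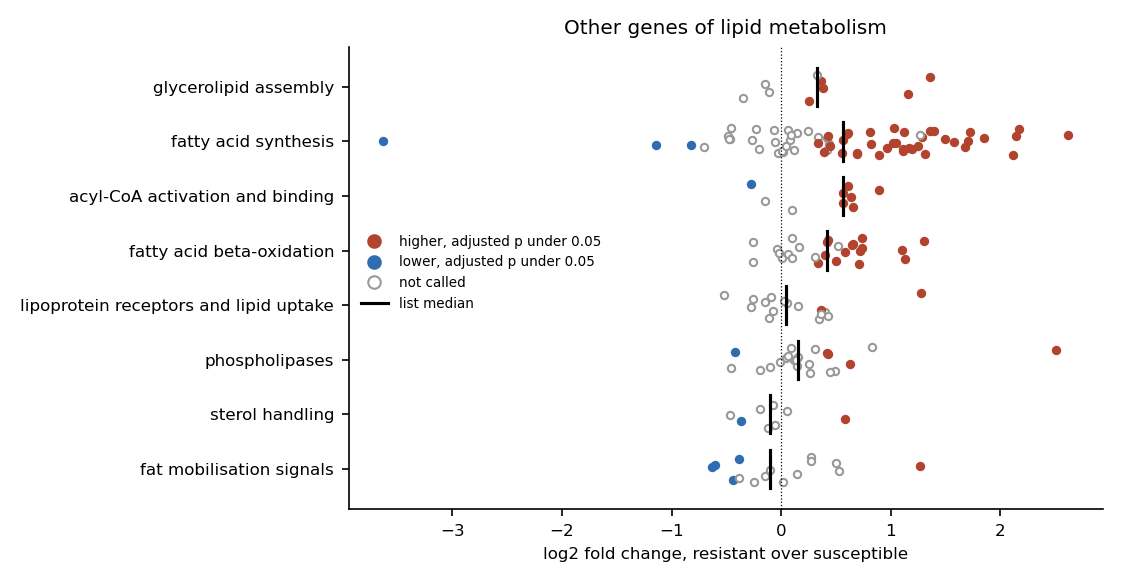
Log2 fold change (resistant over susceptible, x axis) of each tested gene in 8 lists of other lipid genes, called genes in solid red (higher) or blue (lower), others open, with the list median as a black bar. Medians run from 0.57 for fatty acid synthesis and for acyl-CoA activation and binding to -0.10 for fat mobilisation signals and sterol handling, but the lowest ones depend on single libraries: the fat mobilisation median was 0.04 without resistant replicate 2 and 0.02 without resistant replicate 3, the sterol median 0.00047 without resistant replicate 1, and the uptake median, 0.04, was -0.03 without resistant replicate 1.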

How the data were processed

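The data are 1 table for 6 libraries. The authors deposited raw read counts per gene as whole numbers, together with FPKM per gene and library, per the file headers. Tools listed in the submitters' processing notes are fastp 0.22.0 and HISAT2; no source used here gives the counter, strand setting or genome build, so overlapping or antisense genes cannot be told apart and no coordinates are printed. The deposited FPKM values were used only to derive gene lengths, as the median over libraries.

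Raw counts of all genes were fitted in R 4.3.3 with edgeR 4.0.16 (TMM, filterByExpr set to 10 counts per library and 15 in total, quasi-likelihood F test with robust dispersion and strain as the only term, Benjamini-Hochberg adjusted p under 0.05), leaving 11149 genes. SE was derived as |log2 fold change|/√F. The fit was tested on simulated data. Members and lists were chosen with earlier results of these data known; lists are described by counts, not by a set test.

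Members were named in full in roles of at most 4; otherwise up to 4 higher, 3 lower and the 2 most abundant were named, and in each list the greatest change per direction at 5 CPM or more. Other members, further list genes and all neighbouring genes were named after their values were seen. Alternatives used DESeq2 1.42.0, limma 3.58.1, other scalings and filters, a replicate block and leaving out each library. Within strains, pairs of libraries differed beyond sampling noise (chi-square over its degrees of freedom, 6.94 to 123). Python 3.11.15 with pandas 2.3.3 and matplotlib 3.10.9 made tables and figures. Protein and promoter sequences were not used here.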

Additional observations from a re-analysis of the deposited data

How the results depend on the processing

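Across 13 alternatives, 9 of the 13 higher and 3 of the 5 lower calls among the lipid genes held throughout, and 12 of the 21 genes without a call stayed without one. The higher count ranged from 10 to 16 when 1 library was left out and from 11 to 13 otherwise, and the lower count from 3 to 8 and from 5 to 6. The count at least 2-fold higher stayed between 6 and 7. With no low-count filter 1 lipid gene was at least 2-fold lower in place of 0. LOC114125226 ranged from -0.16, reversed, without resistant replicate 1 to 0.15 without resistant replicate 3. With library totals alone the median of all tested genes moved to -0.15 and that of the lipid genes to 0.02, and 340 genes in all were at least 2-fold lower in place of 219, with 1759 called higher and 2322 lower in place of 2383 and 1611. Leaving out 1 library moved the lower calls over all genes between 788 and 2826. The replicate number as a block gave 12 higher and 5 lower lipid genes. Same-numbered libraries did not deviate together (correlations from -0.03 to -0.01). These correlations cannot show whether the numbers mark a shared culture or day with little effect, and the labels do not state it. The cause of these shifts was not tested. Depth limits the genes with few counts: 4 acid lipases did not pass the low-count filter in the main fit. With some single libraries left out, such as resistant replicate 1, 9 acid lipases passed it in place of 8. All 12 were tested with no filter.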

Other observations

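The Pfam domain named Lipase also occurs in 8 genes whose product text did not meet the choice of members, and their values were looked at afterwards. Of the 7 that were tested, 2 were called higher and 0 lower, where 21.4% of all tested genes were called higher and 14.4% lower. The uncharacterized gene LOC114123886 had 24.5, 20.3 and 24.4 CPM in the resistant libraries and 8.47, 8.05 and 8.68 CPM in the susceptible ones (log2 fold change 1.46 ± 0.13, edgeR adjusted p = 0.00013). LOC114119209, also uncharacterized, had 32.6 ± 7.8 CPM in the resistant and 18.5 ± 0.47 CPM in the susceptible libraries (SD, n = 3 each; log2 fold change 0.82 ± 0.17, adjusted p = 0.0068). The 4 phospholipase A1 type genes with this domain and the abundant LOC114131722 gave no call (adjusted p from 0.466 to 0.958).

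The pancreatic-type lipase LOC114125528 varied more within the resistant strain than between strains. It had 20, 304 and 62 counts in resistant replicates 1 to 3, or 0.745, 6.59 and 1.69 CPM, against 101, 90 and 37 counts in the susceptible libraries, or 2.64, 2.61 and 1.11 CPM. Unlike most of its role it was lowest in resistant replicate 1.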
